A study of Homo sapiens with 8 samples.

Results

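The genes described here are 9 core genes of TGF-beta signalling: the ligands TGFB1 and TGFB2, the receptors TGFBR1, TGFBR2 and TGFBR3, and the intracellular SMAD2, SMAD3, SMAD4 and SMAD7. They were chosen by symbol from the 56303 genes of a MeRIP-seq count table, 39706 of which had at least 1 count, and all 9 passed the filter on low counts. The libraries came from SK-N-BE(2), an established human neuroblastoma cell line with MYCN amplification, in which METTL14 was knocked down with an shRNA (shMETTL14) or a control shRNA was expressed instead (sh-NC). METTL14 is the RNA-binding partner of METTL3 in the enzyme complex that writes N6-methyladenosine (m6A) into messenger RNA. Each arm had 2 samples, called culture 1 and culture 2 below, and each culture gave an IP library, made from RNA fragments pulled down with an anti-m6A antibody, and an input library, made from fragments of the same poly(A) RNA set aside before the pull-down. There were thus 8 libraries and 2 per group. The shRNAs are described as pLKO.1 lentiviral constructs in the methods. The labels do not say whether the shMETTL14 cultures carried the same shRNA or whether cultures were infected separately. The p-values thus cover no spread beyond that of these samples, which the model estimates partly across genes.

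TGF-beta ligands are secreted in a latent form and, once released, are held by the co-receptor betaglycan (TGFBR3) and bound by the type II receptor (TGFBR2), which then phosphorylates the type I receptor (TGFBR1). The type I receptor phosphorylates SMAD2 and SMAD3, which join SMAD4, enter the nucleus and regulate target genes with partner factors, while SMAD7 blocks the receptors and recruits ubiquitin ligases. In neuroblastoma and in the sympathetic lineage the pathway is known for its part in growth arrest, differentiation and the shift between adrenergic and mesenchymal cell states.

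Total counts ran from 32027379 to 47205265 per library. METTL14 itself had 49.5 and 48.8 CPM, the count scaled to a common library size, in sh-NC inputs against 13.7 and 14.7 CPM in shMETTL14 inputs, which was -1.79 on the log2 scale (SE 0.0663), so the knockdown was seen in both cultures. All 9 markers of adrenergic neuroblastoma were present, with a summed input level of 5864 to 6093 CPM in sh-NC and 6201 to 6281 CPM in shMETTL14. MYCN, which was not called, made up 4224 to 4452 CPM of these sums, and 6 of the 9 were called higher in shMETTL14: TH (log2 1.03), DBH (0.84), CHGA (0.58), ISL1 (0.45), GATA3 (0.28) and HAND2 (0.14). The part of these marker shifts in the results was not tested. Mesenchymal or fibroblast markers summed to 669.7 to 689.5 and 679.2 to 688.4 CPM, with COL1A1 (log2 -0.67) and PDGFRB (-0.27) called lower and DCN (1.33), LUM (0.67), PRRX1 (1.53) and COL3A1 (0.14) called higher in shMETTL14. Epithelial markers summed to 18.6 to 19.9 and 15.2 to 16.3 CPM, Schwann cell markers to 5.46 to 6.04 and 5.15 to 5.33 CPM, leukocyte markers to 2.07 to 2.14 and 1.63 to 1.96 CPM, and endothelial markers to 2.02 to 2.55 and 1.44 to 1.63 CPM. PECAM1 and KDR of endothelium, and CDH1 of epithelium, had at most 0.168 CPM in any input, whereas EPCAM had 4.91 to 5.46, KRT19 7.97 to 11.7, KRT8 1.44 to 2.02 and VWF 1.20 to 1.99 CPM. KRT18 (log2 -1.41) and KRT19 (-0.33) were called lower in shMETTL14. Input levels were low for KRT18, at 0.260 to 1.06 CPM, and for PRRX1, at 0.166 to 0.766 CPM.

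Of the receptors, TGFBR2 and TGFBR3 were called lower in the input comparison and TGFBR1 was not. Sequences from the 250 bases before the first RefSeq-listed start of each receptor gene are therefore shown, with the second start of TGFBR2 added. They let the start regions of the receptors that fell (TGFBR2 and TGFBR3) be read beside that of TGFBR1. They come from the RefSeq promoter table of GRCh38.p14, run 5′ to 3′ on the gene's strand, and stop where a listed exon begins. The TGFBR3 stretch thus ends 128 bases short of the start. The first listed starts of TGFBR1 and TGFBR3 lie inside the spans of the counted genes. GC boxes, the letters GGGCGG or CCGCCC bound by SP1 and related factors, are in capitals.
TGFBR1, chr9:99104863-99105088, plus strand: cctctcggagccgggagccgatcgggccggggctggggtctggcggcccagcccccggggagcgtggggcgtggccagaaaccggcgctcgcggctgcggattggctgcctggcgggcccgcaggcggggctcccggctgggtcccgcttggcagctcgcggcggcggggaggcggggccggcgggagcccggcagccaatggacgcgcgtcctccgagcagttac
TGFBR2, chr3:30606106-30606355, plus strand: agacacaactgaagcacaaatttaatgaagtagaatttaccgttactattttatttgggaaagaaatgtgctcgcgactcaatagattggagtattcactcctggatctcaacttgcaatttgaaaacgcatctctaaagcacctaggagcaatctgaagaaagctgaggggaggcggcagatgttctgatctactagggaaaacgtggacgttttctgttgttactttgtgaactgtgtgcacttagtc
TGFBR2, second listed start, chr3:30606351-30606501, plus strand: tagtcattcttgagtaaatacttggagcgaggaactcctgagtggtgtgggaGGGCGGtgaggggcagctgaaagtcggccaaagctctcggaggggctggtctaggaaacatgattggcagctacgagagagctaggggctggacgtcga
TGFBR3, chr1:91886280-91886401, minus strand: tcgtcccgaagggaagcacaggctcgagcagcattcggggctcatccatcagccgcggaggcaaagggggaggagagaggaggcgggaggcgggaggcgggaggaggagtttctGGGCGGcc
The stretches of TGFBR1 (226 bases) and of the first TGFBR2 start (250 bases) held no GC box. The stretch of the second TGFBR2 start (151 bases) and that of TGFBR3 (122 bases) each held 1, and the full windows of 250 bases before these starts held 2 each. A GC box on either strand was present in 42.6% of 35116 RefSeq windows of this length. TGFBR1 has 8 listed starts in this table, of which only the first is printed, and the windows of the other 7 held between 0 and 6 GC boxes. Counts per whole gene do not show which start was used. GC content was 79.6% in the TGFBR1 window, 40.8% and 58.4% in the TGFBR2 windows and 73.6% in the TGFBR3 window. The E box CACGTG, read by MYCN among other factors, was absent from these windows and present in 6.34% of all of them. The letters CAGAC, the core of the SMAD-binding CAGA box, occurred 1 time before TGFBR1 and not before TGFBR2 or TGFBR3, against 38.0% of all windows with a match on either strand. TATAAA was absent from these windows and was found in 10.7% of all windows.

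Levels of the genes can be compared with each other only per length, here as CPM per kilobase of merged exon. TGFB1 was the highest of the 9 in sh-NC inputs, at 16.1 CPM per kb, followed by SMAD3 at 8.72, TGFBR1 at 3.65, SMAD4 at 2.64, SMAD7 at 2.10, SMAD2 at 1.13, TGFBR2 at 0.639, TGFBR3 at 0.541 and TGFB2 at 0.0970 CPM per kb (means, n = 2). The order was the same in shMETTL14 inputs, from 14.3 CPM per kb for TGFB1 to 0.0739 for TGFB2. No neighbours in this order overlapped between their 2 cultures in either arm. The order depends on the gene models, since the merged exons of SMAD2 cover 36366 bases and those of TGFB1 3238 bases, and a long merged model lowers the value per length.

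Knockdown of METTL14 was accompanied by lower input levels of the ligand-binding receptors. TGFBR3 fell to 0.399 times and TGFBR2 to 0.564 times its sh-NC level, whereas the type I receptor TGFBR1, which carries the signal to the SMADs, did not pass the test. SMAD3, SMAD4 and TGFB1 fell by small amounts, to between 0.867 and 0.891 times. In all, 5 of the 9 genes passed the test as lower and 0 as higher. Over the 22245 genes tested, 12.3% were called lower and 11.7% higher. The 9 genes were chosen with earlier results of these data known, so their share describes them and is not a test. The median log2 fold change was -0.19 over the 9 genes and 0.00 over all genes tested. The input levels of the arms did not overlap for 6 of the 9 genes, all of them lower in shMETTL14, against 58.4% of all genes in either direction. Fewer cells of a kind and less RNA per cell cannot be told apart in such bulk libraries.

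**Figure D1:**
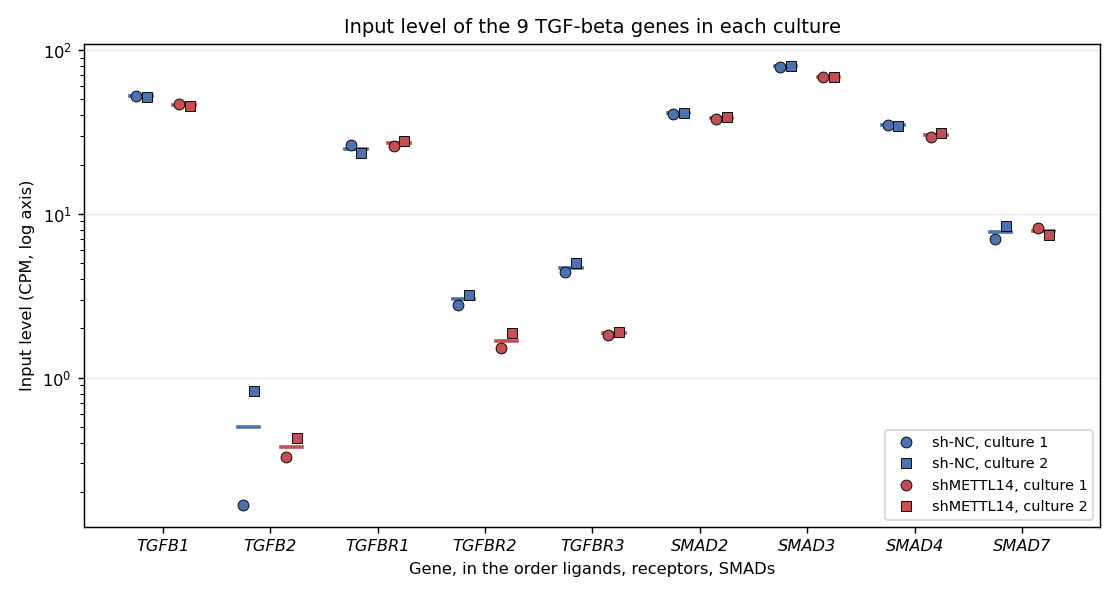
Input level of each of the 9 genes in CPM (log axis) in the cultures of each arm, with circles for culture 1, squares for culture 2 and a line at the mean of each arm. TGFBR2 and TGFBR3 lie lower in both shMETTL14 cultures, at 1.51 to 1.91 CPM against 2.80 to 4.99 CPM in sh-NC, and the TGFB2 points of sh-NC lie far apart.

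TGFB1, the main ligand made by many tumour cells, is encoded on chromosome 19 (GRCh38, chr19:41301587-41353911, minus strand). Its input level was 52.3 and 51.9 CPM in sh-NC against 46.8 and 45.5 CPM in shMETTL14. Both shMETTL14 cultures lay below both sh-NC cultures. This was a log2 fold change of -0.17 (SE 0.0518, edgeR adjusted p = 0.0201). This call did not hold with DESeq2 (adjusted p = 0.0621), without a filter on low counts (adjusted p = 0.110), or without shMETTL14 culture 1 (adjusted p = 0.101), shMETTL14 culture 2 (adjusted p = 0.206) or sh-NC culture 1 (adjusted p = 0.0734) in edgeR.

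TGFB2, the ligand that depends most on betaglycan for its binding to the receptors, was close to the limit of detection (chr1:218346235-218444619, plus strand). It had 6 and 30 counts in sh-NC inputs against 14 and 18 in shMETTL14 inputs, or 0.168 and 0.832 CPM against 0.330 and 0.431 CPM. The sh-NC cultures differed by more than the arms, whose values overlapped. Its log2 fold change was -0.39 (SE 0.566, edgeR adjusted p = 0.697) and turned to 1.17 without sh-NC culture 2, so that no direction can be given at this depth. A share of 26.6% of its exonic bases lies in TGFB2-OT1 on the same strand, which had 26 counts over the 8 libraries.

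TGFBR1 encodes the type I receptor kinase (chr9:99104038-99154192, plus strand). Its input level was 26.4 and 23.6 CPM in sh-NC against 26.1 and 27.7 CPM in shMETTL14, and the arms overlapped. On the log2 scale the difference was 0.11 (SE 0.0715, edgeR adjusted p = 0.280).

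TGFBR2 encodes the type II receptor, the kinase that binds the ligand first (chr3:30606502-30694142, plus strand). Counts were 100 and 116 in sh-NC inputs against 64 and 78 in shMETTL14 inputs, which is 2.80 and 3.22 CPM against 1.51 and 1.87 CPM. Both shMETTL14 cultures lay below both sh-NC cultures. The log2 fold change was -0.83 (SE 0.211, edgeR adjusted p = 0.00491). It stayed between -0.99 and -0.68 when a culture was left out, but the adjusted p in edgeR rose to 0.0937 without shMETTL14 culture 1, to 0.0630 without shMETTL14 culture 2 and to 0.0759 without the filter on low counts.

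TGFBR3 encodes betaglycan, a membrane proteoglycan that presents ligands to the type II receptor (chr1:91680343-91906335, minus strand). It had 158 and 180 counts in sh-NC inputs against 77 and 80 in shMETTL14 inputs. In CPM this was 4.42 and 4.99 against 1.82 and 1.91, with a wide gap between the arms. This was a log2 fold change of -1.33 (SE 0.180, edgeR adjusted p = 4.64e-06). TGFBR3 was called lower under each alternative tried, including each culture left out, with log2 values between -1.41 and -1.24. No exonic base of the receptor genes is shared with another listed gene.

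SMAD3, the receptor-regulated SMAD that binds DNA directly, had input levels of 79.0 and 80.0 CPM in sh-NC against 68.7 and 68.5 CPM in shMETTL14 (chr15:67063763-67195195, plus strand). The cultures within an arm were close to each other and the arms did not overlap. Its log2 fold change was -0.21 (SE 0.0449, edgeR adjusted p = 0.00123), and the call was lost only without shMETTL14 culture 2 among the alternatives tried (edgeR adjusted p = 0.0794). SMAD2, its close relative on chromosome 18 (chr18:47808957-47931146, minus strand), had 40.9 and 41.2 CPM in sh-NC against 38.2 and 38.9 CPM. These values did not overlap either, but the log2 fold change of -0.08 (SE 0.0561) did not pass the test (edgeR adjusted p = 0.312).

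SMAD4, the common partner of all receptor-regulated SMADs, had 34.8 and 34.5 CPM in sh-NC inputs against 29.4 and 31.2 CPM in shMETTL14 inputs (chr18:51028394-51085045, plus strand). Both shMETTL14 cultures were lower. On the log2 scale the difference was -0.19 (SE 0.0618, edgeR adjusted p = 0.0281), and the call was lost with DESeq2 (adjusted p = 0.0906), without the filter on low counts (edgeR adjusted p = 0.146) and with any of the 4 cultures left out (edgeR adjusted p between 0.0502 and 0.276). SMAD4 shares 967 exonic bases with RP11-729L2.2 on the same strand, whose count reached 59.0% of that of SMAD4, so that its value may hold reads of both.

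SMAD7, the inhibitory SMAD and itself a target of the pathway, had 7.05 and 8.48 CPM in sh-NC against 8.19 and 7.44 CPM in shMETTL14 (chr18:48919853-48950711, minus strand). The arms overlapped fully, and the log2 fold change was 0.02 (SE 0.122, edgeR adjusted p = 0.955).

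**Figure D2:**
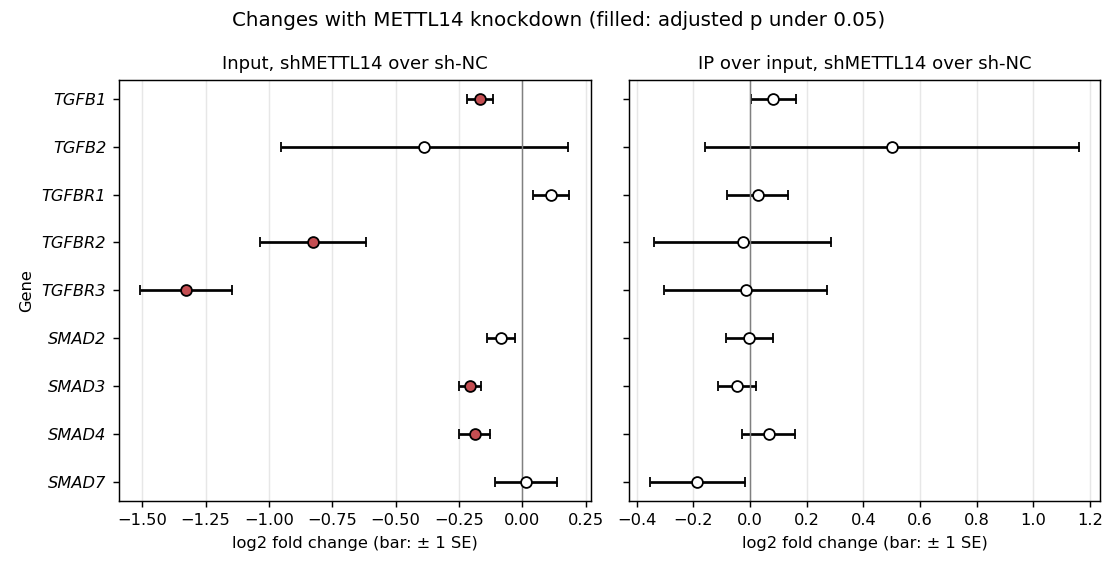
Log2 fold changes of the 9 genes (x axes, points with bars of 1 SE; filled points have an adjusted p under 0.05) for the input level and for IP over input, shMETTL14 over sh-NC. TGFBR3 and TGFBR2 stand at -1.33 and -0.83 in the input panel, and no gene is filled in the panel of IP over input.

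The proportion of the receptors to each other shifted with these changes. The ratio of TGFBR1 to TGFBR2 in input CPM per kb was 6.48 and 5.04 in sh-NC cultures against 11.9 and 10.2 in shMETTL14 cultures. The ratio of TGFBR1 to TGFBR3 was 7.59 and 6.01 against 18.3 and 18.4. In both cases the shMETTL14 cultures lay above both sh-NC cultures. The IP libraries, which were made from the pulled-down part of the same RNA, gave ratios of TGFBR1 to TGFBR2 of 4.80 and 4.62 in sh-NC against 10.1 and 8.79 in shMETTL14. Their ratios of TGFBR1 to TGFBR3 were 7.97 and 7.00 against 20.4 and 21.7. The ratio of SMAD3 to SMAD2 in input CPM per kb moved little, from 7.70 and 7.75 in sh-NC to 7.18 and 7.02 in shMETTL14. The size of this ratio depends on the gene models, with 36366 merged exon bases for SMAD2 and 9113 for SMAD3. With 2 cultures against 2, an exact permutation test cannot give a two-sided p below 0.333, so these ratios were not tested on their own.

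**Figure D3:**
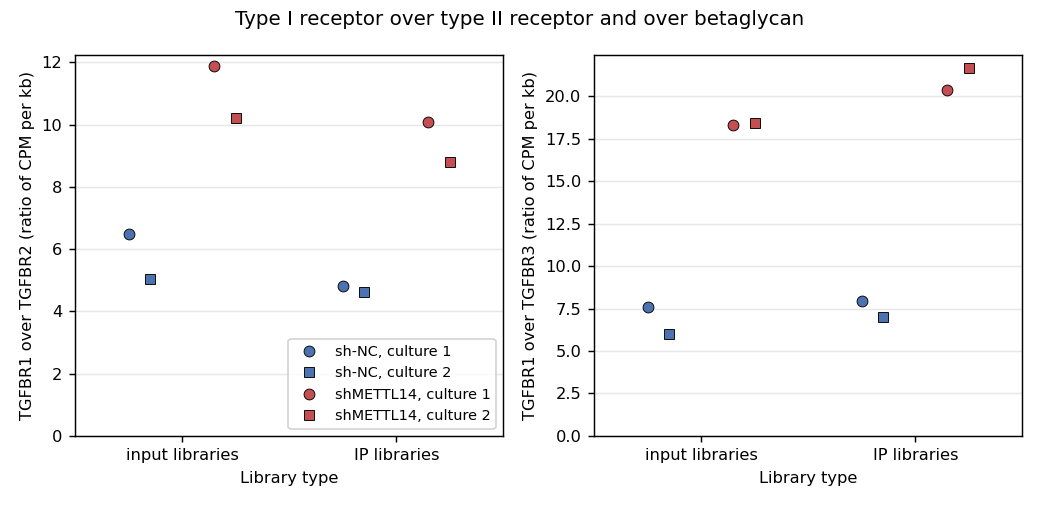
Ratio of TGFBR1 to TGFBR2 (left) and of TGFBR1 to TGFBR3 (right) in CPM per kb, for the input and the IP libraries of each culture (circles culture 1, squares culture 2). The shMETTL14 ratios lie between 8.79 and 11.9 on the left and between 18.3 and 21.7 on the right, and the sh-NC ratios between 4.62 and 6.48 and between 6.01 and 7.97.

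The genes whose pattern over the 8 libraries was most like that of TGFBR3 were SSPN, TMEM19 and SCGN, by Euclidean distance of log2 CPM centred per gene, among 16442 genes. The distances were 0.420, 0.448 and 0.463 on the log2 scale. SSPN, which encodes the membrane protein sarcospan, had 5.82 and 6.13 CPM in sh-NC inputs against 2.62 and 3.42 CPM in shMETTL14 inputs. SCGN, which encodes the calcium-binding secretagogin, had 41.8 and 44.1 CPM against 17.2 and 17.0 CPM.

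IP over input asks which transcripts were pulled down by the m6A antibody more than the average gene. In sh-NC the log2 values of the 9 genes ran from -0.47 for TGFBR3 to 0.94 for TGFB2. All 3 receptors, TGFB1 and SMAD4 had values below 0 on the log2 scale, and SMAD3, SMAD7, SMAD2 and TGFB2 values above 0. The test called 2 genes higher, SMAD3 and SMAD7, and 4 lower, TGFBR3, TGFBR1, SMAD4 and TGFB1. Over the 22953 genes tested, 29.1% were called higher and 29.8% lower, and 6 of the 9 genes were called in either direction. The median log2 was -0.04 over the 9 genes and -0.01 over all genes tested. These values are relative to the average gene: with factors from the least enriched 25% of genes the median of all genes moved to 0.90, and all 9 genes lay above 0. With library size only the median of all genes was -0.14, and SMAD2 and SMAD3 lay below 0, at -0.11 and -0.019.

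**Figure D4:**
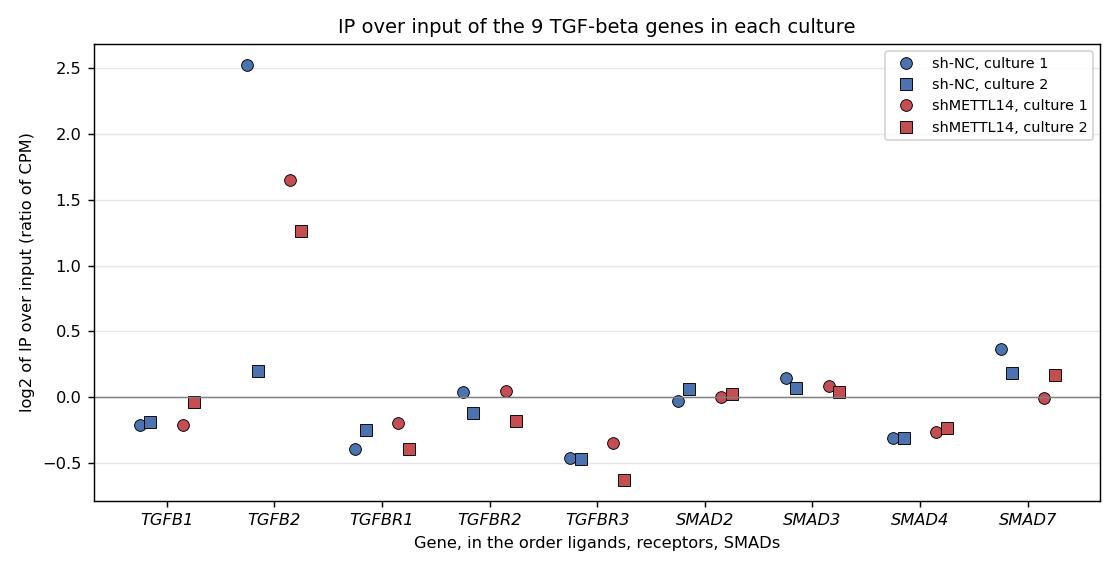
Log2 of IP over input, as the ratio of CPM, for each of the 9 genes in each culture (circles culture 1, squares culture 2, blue sh-NC, red shMETTL14). The points of the arms lie side by side for most genes, TGFB1, SMAD4, TGFBR1 and TGFBR3 lie below 0 in every culture, and the TGFB2 points spread widely.

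Among the receptors, TGFBR3 had an IP over input ratio of 0.726 and 0.724 in sh-NC cultures against 0.786 and 0.647 in shMETTL14 cultures. In sh-NC this was -0.47 on the log2 scale (SE 0.182, edgeR adjusted p = 0.0235), a call that was lost with DESeq2 (adjusted p = 0.0823) and without either sh-NC culture (edgeR adjusted p = 0.170 and 0.165). In shMETTL14 the log2 value was -0.49 (SE 0.234, edgeR adjusted p = 0.0712), and the edgeR adjusted p became 0.0234 with library size only. TGFBR1 had ratios of 0.763 and 0.843 in sh-NC against 0.875 and 0.761 in shMETTL14. It was called lower than the average in both arms, at -0.32 (SE 0.0758, edgeR adjusted p = 0.000272) and -0.29 (SE 0.0747, edgeR adjusted p = 0.000661) on the log2 scale. These calls were lost without sh-NC culture 1 (edgeR adjusted p = 0.0744) and without shMETTL14 culture 2 (edgeR adjusted p = 0.174), respectively. TGFBR2 was near the average in every culture, with ratios of 1.03 and 0.920 in sh-NC against 1.03 and 0.885 in shMETTL14. All of these ratios overlapped between the arms.

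Among the SMADs, SMAD4 had ratios of 0.805 and 0.807 in sh-NC against 0.833 and 0.853 in shMETTL14. It was called lower than the average in both arms, at -0.31 on the log2 scale (SE 0.0660, edgeR adjusted p = 6.20e-05) and -0.25 (SE 0.0676, edgeR adjusted p = 0.00162), and its 2 shMETTL14 cultures lay just above its sh-NC cultures. The shMETTL14 call was lost without shMETTL14 culture 1 (edgeR adjusted p = 0.0557). SMAD7 had the highest ratios of the SMADs in sh-NC, 1.29 and 1.14, and lay at 0.995 and 1.13 in shMETTL14. Its log2 value in sh-NC was 0.27 (SE 0.118, edgeR adjusted p = 0.0482), and this call was lost with DESeq2 (adjusted p = 0.115), without the filter (edgeR adjusted p = 0.0733), with at least 10 counts in every library (edgeR adjusted p = 0.0758), with library size only (edgeR adjusted p = 0.334) and with any culture left out (edgeR adjusted p between 0.0542 and 0.349). SMAD3 lay at 1.11 and 1.05 in sh-NC against 1.06 and 1.03 in shMETTL14. Its log2 value of 0.11 in sh-NC (SE 0.0465) had an edgeR adjusted p of 0.0398, which became 0.0657 with the culture as a block. DESeq2 (adjusted p = 0.0634), at least 10 counts in every library (edgeR adjusted p = 0.106) and leaving out sh-NC culture 1 or either shMETTL14 culture (edgeR adjusted p between 0.0554 and 0.269) also ended this call. SMAD2 lay between 0.983 and 1.04 in the 4 cultures and was not called in either arm.

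Of the ligands, TGFB1 had ratios of 0.863 and 0.878 in sh-NC against 0.864 and 0.978 in shMETTL14. It was called lower than the average in sh-NC, at -0.20 on the log2 scale (SE 0.0556, edgeR adjusted p = 0.00168), a call lost without sh-NC culture 1 (edgeR adjusted p = 0.0684). In shMETTL14 the value was -0.12 (SE 0.0566, edgeR adjusted p = 0.0684) and was called with library size only (edgeR adjusted p = 0.000394), with at least 10 counts in every library (edgeR adjusted p = 0.0155) and without shMETTL14 culture 2 (edgeR adjusted p = 0.0440). TGFB2 had 44 and 29 counts in the sh-NC IP libraries against 32 and 35 in those of shMETTL14. Its ratios were 5.76 and 1.15 in sh-NC against 3.15 and 2.40 in shMETTL14, so that the sh-NC cultures enclosed the others. The log2 value was 0.94 in sh-NC (SE 0.458, edgeR adjusted p = 0.0750) and 1.44 in shMETTL14 (SE 0.468, edgeR adjusted p = 0.00725). With the culture as a block the sh-NC value was 1.10, with an edgeR adjusted p of 0.0424, and without sh-NC culture 2 it was 2.51 (edgeR adjusted p = 0.00303). The shMETTL14 call was lost without either shMETTL14 culture (edgeR adjusted p = 0.153 and 0.0743). In shMETTL14 as a whole, 1 of the 9 genes was called higher, TGFB2, and 2 lower, TGFBR1 and SMAD4, against 28.9% and 29.1% of all genes.

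The difference in IP over input between arms asks whether METTL14 knockdown altered the pull-down of a transcript, relative to its input and to the average gene. The scaling put the median log2 change of all genes at -0.001, so a loss of m6A shared equally by all transcripts would not show. The paper reports a lower total m6A level after METTL14 knockdown. The difference passed the test for 0 of the 9 genes in edgeR. Over all 22953 genes tested, 0.00436% passed, which is 1 gene. The count was also 0 at an unadjusted p under 0.05, where the smallest p of the 9 was 0.273 (SMAD7), and 0 with DESeq2. The log2 changes lay between -0.19 (SMAD7, SE 0.167) and 0.50 (TGFB2, SE 0.660). TGFBR3, whose input level fell most, had a change of -0.02 (SE 0.287), and TGFBR2 one of -0.03 (SE 0.314). With standard errors of this size, moderate changes could also have been missed for these receptors at this depth. These estimates therefore do not show an absence of change. IP over input did not overlap between arms for 2 of the 9 genes, higher in shMETTL14 for SMAD4 and lower for SMAD7, against 34.6% of all genes in either direction.

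The rest of the pathway was read from a list of 82 genes, of which 76 were tested. The list and its roles were chosen with earlier results of these data known. Its counts and shares therefore describe the listed genes and are not a test of the pathway. ACVR1C, AMHR2, BMP2, INHBB, ITGB6 and MSTN had at most 12 counts in any library and were left out by the filter. In the input comparison 9 of the 76 were called higher (11.8%) and 22 lower (28.9%), against 11.7% and 12.3% of all genes, with a median log2 fold change of -0.07 against 0.00 over all genes. The counts were 3 higher and 10 lower without shMETTL14 culture 2, 4 and 15 without shMETTL14 culture 1, 3 and 12 without the filter, and 6 and 21 with DESeq2. Of the downstream targets, 9 of 16 were called lower and 1 higher, 15 of 16 had a log2 fold change below 0, and the median was -0.28. The count of lower targets was 5 without shMETTL14 culture 2. Of the genes that store or release latent ligand, 4 of 11 were called lower and 0 higher, with 2 lower without shMETTL14 culture 2. Of the other receptors and co-receptors of the family, 4 of 10 were called lower and 0 higher, with 1 lower when no filter was used and 2 without either shMETTL14 culture. Of the SMAD partners and corepressors, 4 of 12 were called higher and 1 lower, which became 1 and 0 without shMETTL14 culture 2 or without the filter, and 2 and 1 without shMETTL14 culture 1. Of 9 other ligands, 2 were called higher and 1 lower, of 4 other SMADs 1 and 1, and of 14 adaptors, ubiquitin ligases and phosphatases 1 and 2. None of the adaptor group was called without the filter or without either shMETTL14 culture, and without either of these cultures the ligands had 1 higher and 0 lower and the other SMADs 0 and 1. The genes behind these small counts that the naming rule did not pick were, among the ligands, BMP6 as lower (log2 -1.28, SE 0.345). Among the other SMADs they were the inhibitory SMAD6 as higher (0.17) and SMAD9 as lower (-0.25), both of BMP signalling. Among partners they were SIN3A (0.27), ZEB2 (0.16) and SKI (0.13) as higher. Among adaptors and ligases they were ZFYVE9, which brings SMADs to the receptor, as higher (0.21), and the ubiquitin ligases NEDD4L (-0.26) and STUB1 (-0.22) as lower. STUB1 shares 42.4% of its exonic bases with JMJD8 on the opposite strand, whose count reached 63.0% of that of STUB1. ZFYVE9 shares 144 bases with CC2D1B on the opposite strand, whose count reached 158% of that of ZFYVE9. The values of STUB1 and ZFYVE9 may thus hold reads of both genes.

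**Figure D5:**
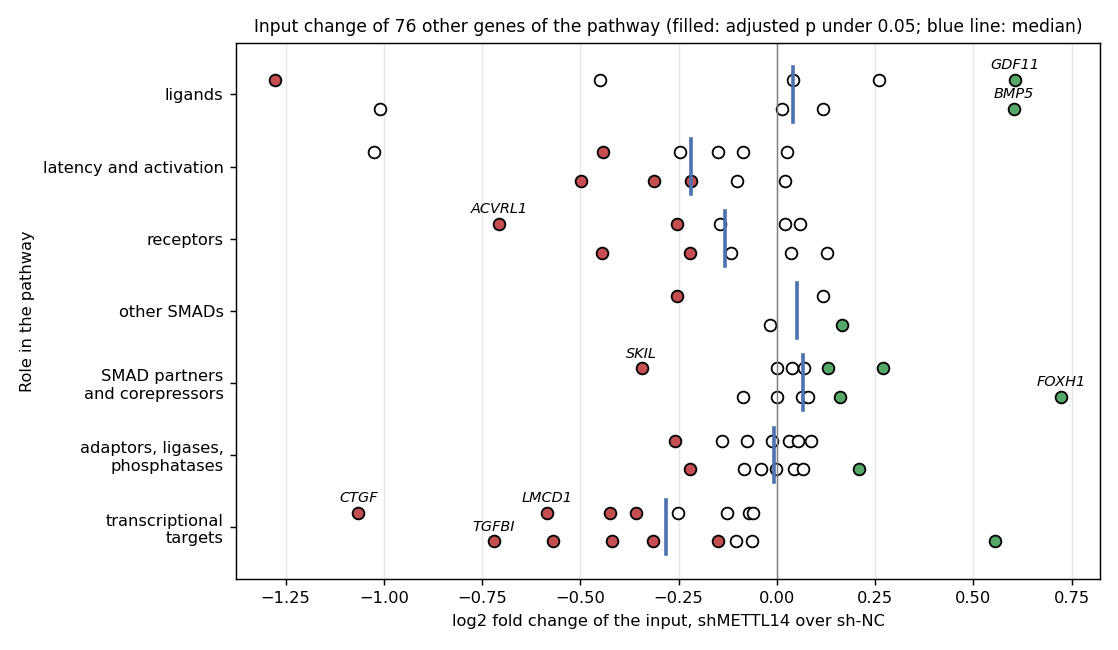
Log2 fold change of the input, shMETTL14 over sh-NC, for 76 other genes of the pathway by role (filled points have an adjusted p under 0.05, red lower, green higher; blue lines are medians; vertical offsets only separate points). Of the 16 targets, 15 lie to the left of 0, with a median of -0.28. The list was chosen with earlier results of these data known.

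Among the targets the fall was largest for CTGF, now named CCN2, a matricellular growth factor. It had 2.85 and 2.75 CPM in sh-NC inputs against 1.65 and 1.00 CPM in shMETTL14 inputs, a log2 fold change of -1.07 (SE 0.242, edgeR adjusted p = 0.00182). This call was lost without the filter (edgeR adjusted p = 0.0994) and without shMETTL14 culture 2 (edgeR adjusted p = 0.106). TGFBI, an extracellular matrix protein named after its induction by TGF-beta, fell from 58.8 and 57.7 CPM to 35.9 and 34.5 CPM. Its log2 fold change was -0.72 (SE 0.0538, edgeR adjusted p = 3.85e-10). LMCD1, a LIM domain protein, fell from 11.9 and 11.7 CPM to 7.69 and 7.97 CPM, or by 0.58 on the log2 scale (SE 0.104, edgeR adjusted p = 0.000146). ID1 (log2 -0.42) and TIMP1 (-0.36) were called lower too, as were SNAI2 (-0.57), JUNB (-0.42), BHLHE40 (-0.31) and FN1 (-0.15), which were named after their values were seen. Targets that were not called, likewise named afterwards, were CDKN2B (log2 -0.25), PMEPA1 (-0.13), ID3 (-0.10), ID2 (-0.07), SNAI1 (-0.06) and CDKN1A (-0.06).

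ACVRL1, a type I receptor known mainly from endothelial cells, had 6.74 and 7.21 CPM in sh-NC inputs against 3.63 and 4.88 CPM in shMETTL14 inputs. Its log2 fold change was -0.71 (SE 0.147, edgeR adjusted p = 0.000774), lost without the filter (edgeR adjusted p = 0.0929) and without shMETTL14 culture 1 (edgeR adjusted p = 0.0588). ENG, its co-receptor and a relative of betaglycan, was named after its values were seen: it fell from 128 and 133 CPM to 99.6 and 91.7 CPM, or by 0.44 on the log2 scale (SE 0.0443, edgeR adjusted p = 4.58e-08). The summed endothelial markers lay at 1.44 to 1.63 CPM in the shMETTL14 inputs against 2.02 to 2.55 CPM in sh-NC, with 3 of the 4 below 1 CPM on average in both arms. Of the 4 markers 2 were tested, VWF and CDH5, and 0 were called in either direction. CDH5 had 0.336 and 0.222 CPM in sh-NC inputs against 0.0944 and 0.383 CPM in shMETTL14 inputs. The part of these markers in the results was not tested. BMPR1A (log2 -0.25) and BMPR2 (-0.22), also named after their values were seen, were the other receptors called lower. Of the latency genes, ITGAV (log2 -0.50), THBS1 (-0.44), LTBP2 (-0.31) and LTBP3 (-0.22) were called lower and were likewise named afterwards. ITGAV encodes the alpha-V chain of the integrins that pull latent TGF-beta open, THBS1 a matrix protein that activates it, and LTBP2 and LTBP3 proteins of the latent TGF-beta binding family.

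FOXH1, GDF11 and BMP5 were among the pathway genes that rose most by the naming rule, and belong to the activin, nodal and BMP side of the family. That side did not rise as a whole: BMP6, BMPR1A, BMPR2 and SMAD9 were called lower, and SMAD6 was called higher. GDF11, an activin-type ligand that signals through SMAD2 and SMAD3, rose from 94.5 and 89.2 CPM to 144 and 134 CPM, a log2 fold change of 0.61 (SE 0.0446, edgeR adjusted p = 2.99e-10). FOXH1, a DNA-binding partner of SMAD2 and SMAD4, rose from 3.10 and 3.35 CPM to 4.86 and 5.77 CPM, or by 0.72 on the log2 scale (SE 0.156, edgeR adjusted p = 0.00116). This was lost without the filter (edgeR adjusted p = 0.0543) and without shMETTL14 culture 2 (edgeR adjusted p = 0.0995), and FOXH1 shares 31.6% of its exonic bases with KIFC2 on the opposite strand, which had more counts. GDF11 shares 386 bases with SARNP on the opposite strand. BMP5 rose from 3.22 and 2.47 CPM to 4.58 and 4.02 CPM, or by 0.60 on the log2 scale (SE 0.175, edgeR adjusted p = 0.0126), a call lost with DESeq2 (adjusted p = 0.0646), without the filter (edgeR adjusted p = 0.133) and without either shMETTL14 culture or sh-NC culture 2 (edgeR adjusted p between 0.114 and 0.168).

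In IP over input within sh-NC, the partners and corepressors of the SMADs lay above the average gene and most of the targets below it. All 12 partners and corepressors had values above 0 on the log2 scale, 9 were called higher and 0 lower, and the median was 0.32. Of the 16 targets 2 were called higher, SNAI2 (0.55) and BHLHE40 (0.57), and 10 lower, with a median of -0.44. Of the 4 other SMADs 3 were called higher, SMAD1 (0.64), SMAD6 (0.41) and SMAD9 (0.22). With factors from the least enriched 25% of genes the median of the targets turned to 0.47, and that of the partners rose to 1.24. Over the 76 genes the counts were 24 higher (31.6%) and 30 lower (39.5%), against 29.1% and 29.8% of all genes, and became 60 and 3 with those factors and 19 and 36 with library size only. SKIL, the corepressor SnoN that holds SMADs inactive, had 40.7 and 34.7 CPM in sh-NC inputs against 77.1 and 83.3 CPM in the sh-NC IP libraries, a log2 ratio of 1.09 (SE 0.0586, edgeR adjusted p = 4.29e-22). ZEB1, a transcription factor of mesenchymal state, stood at 0.77 (SE 0.0418) and FOXH1 at 0.93 (SE 0.150). BAMBI, a decoy receptor without a kinase, rose from 9.51 and 9.59 CPM in the input to 18.1 and 18.9 CPM in the IP, a log2 ratio of 0.95 (SE 0.0943). At the other end, PPP2R1A, the scaffold subunit of the phosphatase PP2A, lay at -1.43 (SE 0.0631), the protease inhibitor TIMP1 at -1.40 (SE 0.102), ID1, an inhibitor of helix-loop-helix factors, at -1.27 (SE 0.0844), and LTBP4 at -1.06 (SE 0.0934). The LTBP4 value became -0.15 with factors from the least enriched 25% of genes, and its call was lost (edgeR adjusted p = 0.142). SKIL also fell in the input comparison, from those sh-NC levels to 29.8 and 29.2 CPM, or by 0.34 on the log2 scale (SE 0.0691, edgeR adjusted p = 0.000551).

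For these 76 genes the difference in IP over input between arms was tested as well, again relative to the average gene. It passed for 0 of the 76 genes in edgeR and 0 in DESeq2, and 5 of the 76 had an unadjusted edgeR p under 0.05. Those 5, named after their values were seen, were ENG, LTBP4, FOXH1, ACVR1B and BMP7, with log2 changes of 0.19 for ENG (SE 0.0676), 0.32 for LTBP4 (SE 0.133), -0.44 for FOXH1 (SE 0.203), 0.21 for ACVR1B (SE 0.0977) and 0.52 for BMP7 (SE 0.249). They are 6.58% of the 76, against 6.34% of all genes, and the count was 1 with DESeq2, with factors from the least enriched 25% of genes and without shMETTL14 culture 2, and 10 without sh-NC culture 1. SKIL had a log2 ratio of 1.01 in shMETTL14 against 1.09 in sh-NC, and BAMBI 1.19 against 0.95.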

How the data were processed

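MeRIP-seq libraries, an IP and an input from each of 2 cultures per arm, were grouped by their titles. The authors deposited raw counts of reads per gene, without normalization. Libraries were stranded, with unique molecular identifiers. The submitters' processing notes name Trimmomatic 0.36 and GRCh38; the aligner, counter, strand setting, annotation and handling of duplicates are not given in the sources used here, so genes sharing exonic bases are uncertain.

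Counts were tested in R 4.3.3 with edgeR 4.0.16: filterByExpr, TMM factors, glmQLFit and glmQLFTest, and Benjamini-Hochberg adjustment over all genes, with a threshold of 0.05. The input comparison used 4 libraries. IP over input, and the difference between arms in it, came from a model with 4 group means over the 8 libraries, whose TMM factors also gave the CPM. Standard errors were taken as the size of the log2 fold change over the root of its F statistic. Log CPM used a prior count of 2. The fits were tested on simulated data.

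IP and input of a culture share their RNA, which pairs them by protocol. Deviations from the group means correlated by 0.004 (sh-NC) and 5.70e-05 (shMETTL14) across genes. Depth is given with the results. Intervals are SE from the model fits, whose spread is estimated partly across genes, and are not the observed spread of 2 cultures.

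The members and lists were chosen with earlier results of these data known. Named genes are the 9 members, METTL14 and, of the pathway list, the 4 highest and 4 lowest called genes per comparison (mean count 50 or more, 1 direction in both same-numbered pairs); 1 gene so chosen is counted with its role but not reported here. Other settings were RLE factors, DESeq2 1.42.0, no filter, library size only, at least 10 counts in every library, a replicate block, factors from the least enriched 25% of genes, and each culture left out, where the lone culture is assumed to vary like the others. RefSeq promoter windows cover 250 bases before each start.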

Additional observations from a re-analysis of the deposited data

How the results depend on the processing

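Of the 9 genes, 5 were called in the input comparison, against 3 with DESeq2 and 2 without a filter, and between 1 and 4 with a culture left out. In IP over input in sh-NC 6 were called, 2 higher and 4 lower, against 3 with DESeq2 (0 and 3), 4 with library size only or a minimum of 10 counts in each library (0 and 4 both times), 9 with factors from the least enriched 25% of genes (9 and 0), and between 1 and 5 with a culture left out. In shMETTL14 3 were called, 1 higher and 2 lower, against 5 with library size only (1 and 4) and 8 with factors from the least enriched 25% of genes (8 and 0), and between 1 and 3 with a culture left out. The count for the change of IP over input was 0 under every alternative run. The cause of these differences was not tested.

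Factors from the least enriched 25% of genes moved the median of all genes to 0.90 (sh-NC) and 0.85 (shMETTL14) on the log2 scale by construction and turned 10 log2 values of IP over input: TGFB1 to 0.71 and 0.74, TGFBR1 to 0.59 and 0.57, TGFBR2 to 0.87 and 0.79, TGFBR3 to 0.44 and 0.37, and SMAD4 to 0.60 and 0.62 in sh-NC and shMETTL14. The change of TGFBR1 became -0.0242. Library size only moved the medians to -0.14 and -0.13 and turned SMAD2 to -0.11 in both arms, SMAD3 to -0.0192 and -0.0577, and SMAD7 in shMETTL14 to -0.0400. The change of SMAD2 became 0.00568. At least 10 counts in every library turned SMAD2 to -0.0109 in sh-NC and -0.018 in shMETTL14.

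With a culture left out, log2 values that crossed 0 ran as follows. In the input, TGFB2 ran from -1.12 to 1.17 and SMAD7 from -0.11 to 0.15. In IP over input, TGFBR2 ran from -0.11 to 0.047 and SMAD2 from -0.0196 to 0.0758 in sh-NC, and TGFBR2 from -0.17 to 0.0492 and SMAD7 from -0.00293 to 0.17 in shMETTL14. In its change, METTL14 ran from -0.00261 to 0.19, TGFB1 from -0.0105 to 0.17, TGFB2 from -1.07 to 1.22, TGFBR1 from -0.076 to 0.13, TGFBR2 from -0.13 to 0.0892, TGFBR3 from -0.16 to 0.12 and SMAD2 from -0.0668 to 0.0375.

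With the culture as a replicate block, the input count of called genes was 5, and TGFB2 (log2 1.10) entered and SMAD3 (log2 0.11) left the called genes of IP over input in sh-NC; the block changed no other call of the 9 genes. Depth limits TGFB2, TGFBR2 and TGFBR3 most, and counts per whole gene do not show where m6A lies.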
